A study of Homo sapiens with 2 samples.

Results

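The nuclear genes of respiratory complexes II to V were compared between 2 cultures of DLD-1, a human cell line established from a colorectal adenocarcinoma. Lipid transfection delivered 5 nmol/L of siRNA to each, a negative control without a human target (siControl) in one and a duplex directed at YY1 (siYY1) in the other, and total RNA was isolated 3 days later. The members were all probe sets whose single current gene symbol begins with SDHAF, UQC, ATP5 or COX followed by a digit, or is SDHA, SDHB, SDHC or SDHD. This rule, which uses no measured value, found 64 probe sets for 64 genes, among 21448 probe sets and 17687 named genes. Of the 64 members, 7 belong to complex II, 14 to complex III, 25 to complex IV and 18 to complex V. Some genes of these complexes were not among the members found, SDHB of complex II and UQCRFS1 of complex III among them. The mitochondria-encoded subunits of these complexes were not analysed here.

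Complex II (succinate dehydrogenase) passes electrons from succinate to ubiquinone, complex III (cytochrome bc1) passes them on to cytochrome c, and complex IV (cytochrome c oxidase) passes them to oxygen. Complexes III and IV pump protons across the inner mitochondrial membrane, and complex V (ATP synthase) uses that gradient to make ATP. Each complex is built with the help of assembly factors, proteins that deliver haem, copper or flavin or hold unfinished subunits, and that are not part of the finished enzyme. YY1 is a zinc finger transcription factor with binding sites in many promoters, those of several respiratory genes among them. The question here was how the levels of these genes differ once YY1 is targeted.

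With 1 array per group there is no replicate spread to set a difference against and no p-value is given, and the number of arrays limits the precision. The siYY1 group rests on a single siRNA sequence, so that effects of YY1 loss and of that sequence on other transcripts cannot be told apart. No named probe set was assigned to YY1, and the group names therefore rest on the labels. All values are log2 expression after quantile normalization of the pair, and all differences are siYY1 minus siControl on that scale. The log2 scale was inferred from the range of the deposited values, 2.51 to 17.9. Protein-coding genes were compared where the higher of their values reached 7.60, the median of that value, which left 8623 genes and 55 of the 64 members. The differences of the 8623 genes had a median of -0.01, an SD of 0.75 and a middle 50% from -0.50 to 0.45. With the values as deposited their median was -0.13, and with each array centred on its median it was -0.20, so signs close to 0 depend on the scaling. Of the 12 colorectal epithelial markers listed, 11 were named and 6 were bright enough to be compared. EPCAM was at 16.29 in siControl and 16.47 in siYY1. KRT8 and KRT18 were also above 0, and CDH1 (-0.04), KRT19 (-0.40) and CDX2 (-0.76) were below it. KRT20 was not among the named genes and CEACAM5, VIL1, CDX1, LGALS4 and GPA33 were below the brightness minimum on both arrays. Of the named fibroblast, endothelial and leukocyte or blood markers, COL1A2 and HBA1 were above it and all others were at or below 6.69. HBA1 was at 7.61 and 9.84, while HBB was dim on both arrays at 4.80 and 5.60. In bulk RNA, fewer cells with a transcript and less of it per cell cannot be told apart.

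The respiratory genes as a whole were centred close to all other genes, and the SD of their differences was smaller. The median over the 55 members compared was 0.04, with an SD of 0.59 across members, and the differences ran from -1.60 to 0.95. None was at least 2-fold higher in the siYY1 array, against 7.97% of the 8623 genes compared. At least 2-fold lower were 5 members, or 9.09% of the 55, against 9.27% of all genes compared, so this share was near the background. The 5 were SDHC, ATP5F1A, UQCC5, COX15 and ATP5F1D, and at least 1 of them belongs to each complex. With the values as deposited, 6.15% of all genes passed 2-fold upwards and 12.2% downwards, and the counts of members were again 0 and 5. Of the members, 30 were above 0 and 25 below, against 49.6% and 50.4% of all genes compared, and with the values as deposited 33 members were below 0. Most members are bright on the array. In the brightest of 3 equal parts of the genes compared, which held 37 members, 12.6% of all genes and 2 of the members passed 2-fold. The SD over all genes of that part was 0.66, so part of the smaller spread goes with brightness.

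**Figure D1:**
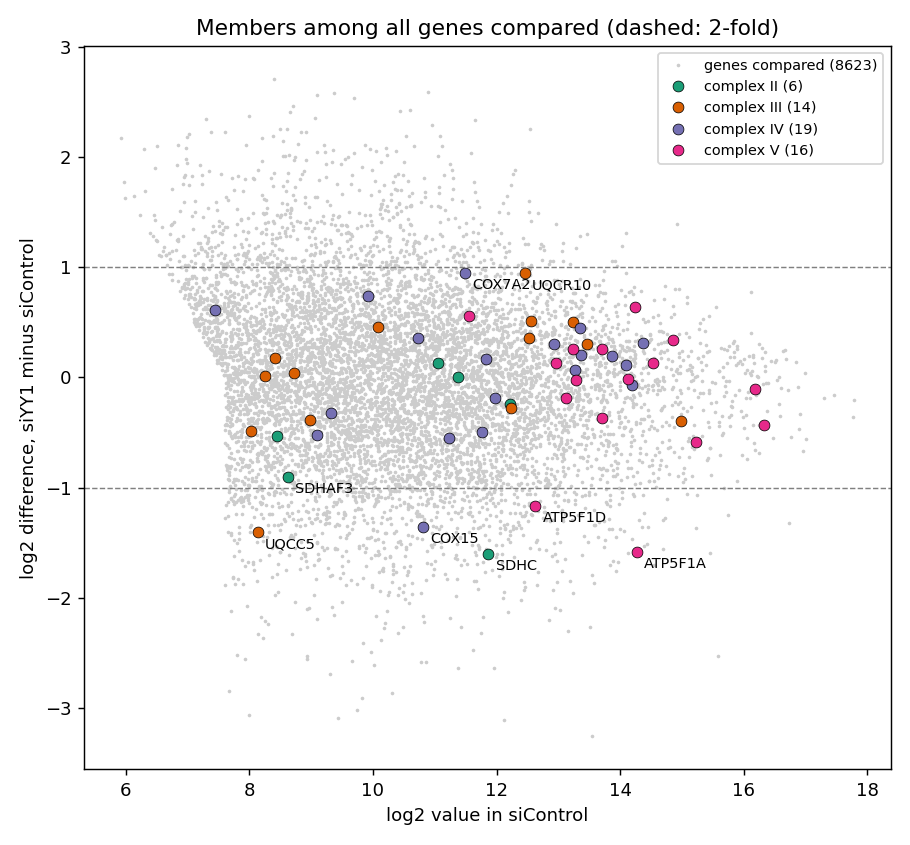
Log2 difference (siYY1 minus siControl) against the log2 value in siControl for the 8623 genes compared (grey) and the 55 members compared, coloured by complex. Dashed lines mark 2-fold; SDHC, ATP5F1A, UQCC5, COX15 and ATP5F1D lie below the lower line, and UQCR10 and COX7A2, at 0.95 each, lie just under the upper line.

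In complex II the catalytic subunit SDHA was nearly equal on the arrays and a membrane anchor was much lower in siYY1, while SDHB had no value. SDHA, the flavoprotein that oxidises succinate, was at 11.38 in siControl and 11.39 in siYY1 (0.01). SDHC, which with SDHD anchors the enzyme in the membrane and holds its haem and ubiquinone site, was at 11.87 in siControl and 10.27 in siYY1. This 3.03-fold lower level (-1.60) was the lowest of all 55 members compared and lay at percentile 2.33 of the genes compared. SDHD, the partner of SDHC, was at 12.21 and 11.97, a difference of -0.24. Both anchors were lower in siYY1, SDHC much more so than SDHD.

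Of the complex II assembly factors, SDHAF3 and SDHAF4 were lower and SDHAF2 was slightly higher. SDHAF3, which acts in the maturation of the iron-sulphur subunit, was at 8.62 in siControl and 7.71 in siYY1 (-0.91), just short of 2-fold. SDHAF4, which binds the flavinated catalytic subunit before assembly, was at 8.44 and 7.91 (-0.54). SDHAF2, needed for the attachment of flavin to SDHA, was at 11.05 and 11.18 (0.13). SDHAF1 was dim on both arrays, at 3.97 and 3.29, and was not compared. The median over the 6 complex II genes compared was -0.39.

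In complex III the small subunits were mostly higher in siYY1, while the large core subunits lay on either side of 0. UQCR10, a small membrane subunit, was at 12.45 in siControl and 13.40 in siYY1. Its 1.93-fold higher level (0.95) was the largest positive difference of all members. UQCR11, another small membrane subunit, was at 12.56 and 13.08 (0.51), and UQCRB, the ubiquinone-binding protein, at 13.23 and 13.73 (0.50). UQCRQ was at 13.46 and 13.77 (0.31). UQCRH, the acidic hinge protein that helps cytochrome c to dock, was the exception at 12.24 and 11.95 (-0.28). It has a near-identical copy, UQCRHL, at 8.41 and 8.59 (0.18), and their probe sets can share signal, so both values are uncertain as single genes. The 5 small subunits had a median of 0.50, with 4 of the 5 above 0. The core subunits UQCRC1 and UQCRC2, which form the matrix-facing base of the enzyme, were at 0.36 (12.53 and 12.89) and -0.40 (14.99 and 14.59).

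The complex III assembly factors named UQCC held 1 strongly lower gene. UQCC5, a small membrane protein that acts in the assembly of complex III, was at 8.13 in siControl but 6.73 in siYY1, so 2.65-fold lower (-1.40). The siYY1 value lay under 6.79, the level of MBP, the brightest of 17 genes of other tissues that fell below the brightness minimum. Another 2 such genes passed that minimum, TNNI3 at 8.24 in siControl and 9.36 in siYY1, and ACTN2 at 7.95 and 8.44. The siControl value of UQCC5 lay within these levels, so the size of its difference is uncertain. UQCC5 also reached the brightness minimum only in siControl, so the filter favours a negative difference. Other members at such levels share these limits. UQCC6, also a small membrane protein, was at 8.02 and 7.53 (-0.49), and UQCC4 at 8.98 and 8.60 (-0.39). UQCC2 and UQCC3, which act in the synthesis and early handling of cytochrome b, differed by 0.01 and 0.04. UQCC1, the partner of UQCC2, was at 10.07 and 10.54 (0.46). The 6 factors thus divided into 3 above and 3 below 0, and 5 of them were below 0 with the values as deposited.

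**Figure D2:**
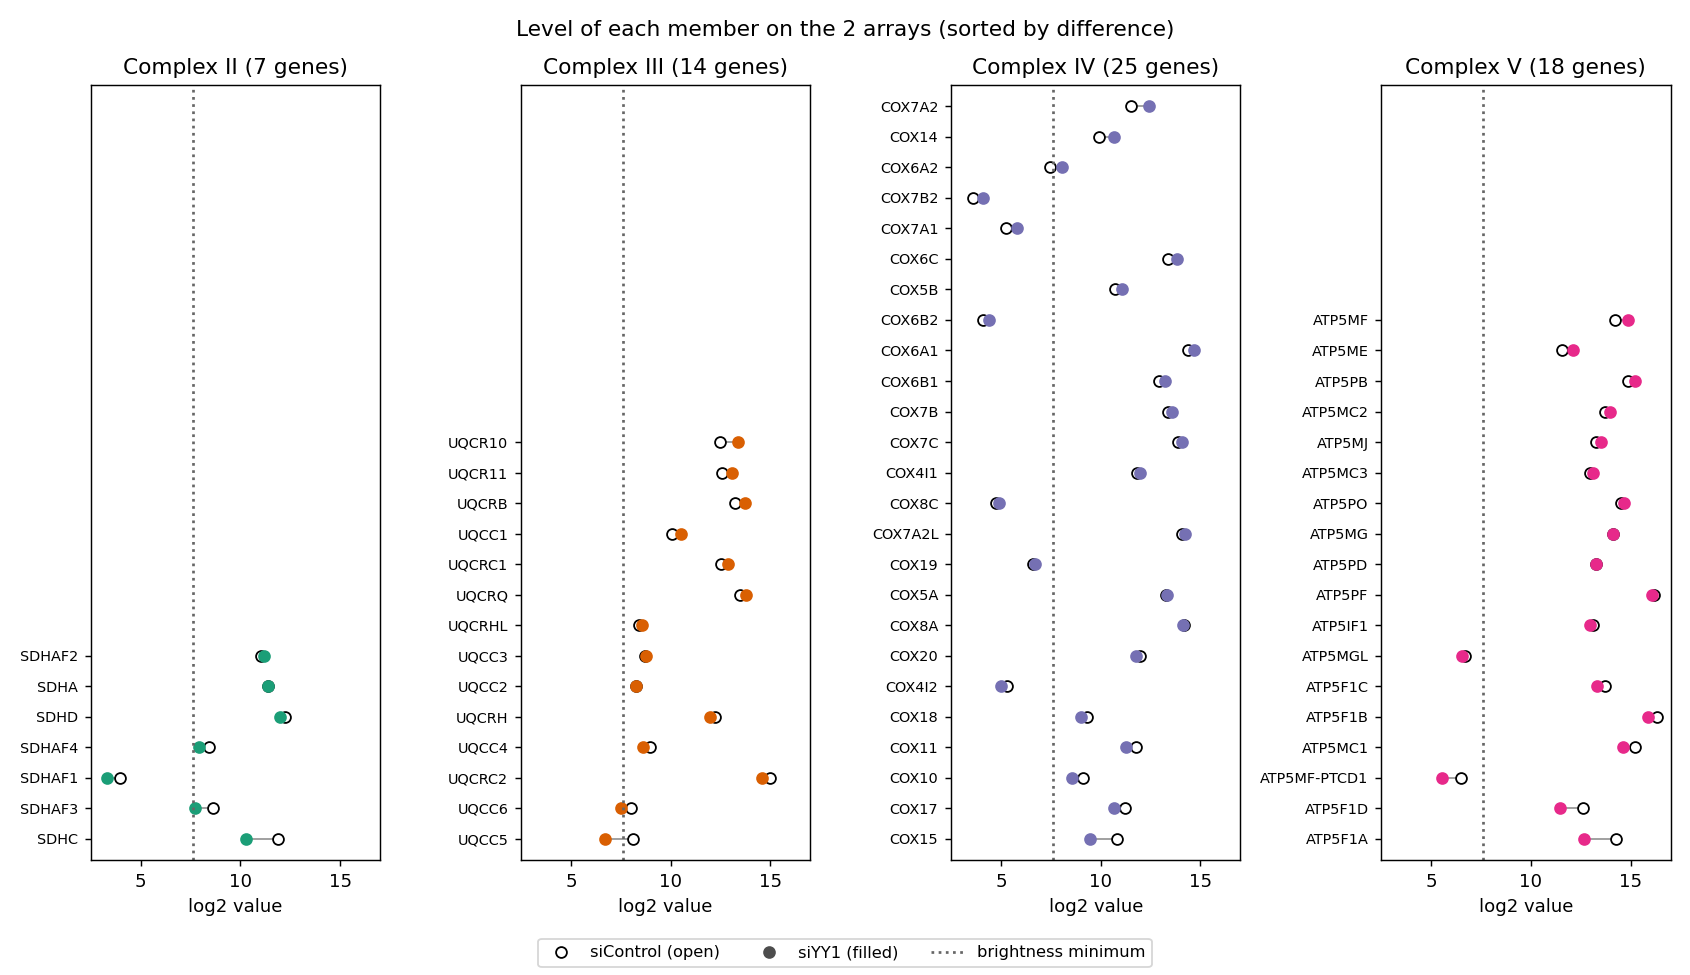
Log2 values of all 64 members on the siControl array (open circles) and the siYY1 array (filled circles), in 1 panel per complex and sorted by the difference. The dotted line is the brightness minimum of 7.60. The longest lines, with siYY1 on the left, belong to SDHC, UQCC5, COX15, ATP5F1D and ATP5F1A, and 9 members lie left of the dotted line on both arrays.

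In complex IV the medians of the structural subunits and of the assembly factors among the members lay on opposite sides of 0. Complex IV assembly factors outside the naming rule lay on either side, such as SURF1 at 0.62 and COA7 at -1.23. The 10 nuclear subunits in their ubiquitous forms had a median of 0.25, with 9 above 0 and a range from -0.07 to 0.95. For the 7 assembly factors compared the median was -0.49, with 6 below 0 and a range from -1.35 to 0.74. Relative to the median of all genes compared, these medians were 0.26 and -0.48 in the main setting and 0.22 and -0.50 with the values as deposited. With centred arrays the medians themselves were 0.015 and -0.70, where all genes compared had -0.20. Of these 7 assembly factors COX14 alone was above 0, and of the 10 ubiquitous subunits COX8A alone was below it. The difference between the groups has no test, since each group was a single array.

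Among the subunits, COX7A2 stood out as the highest. This ubiquitous form of subunit 7A was at 11.50 in siControl and 12.44 in siYY1, 1.93-fold higher (0.95). COX6C was at 13.36 and 13.81 (0.45), COX5B, a zinc-binding matrix subunit, at 10.73 and 11.09 (0.36), and COX6A1 at 14.37 and 14.69 (0.31). COX6B1, which faces the intermembrane space, was at 12.93 and 13.23 (0.30). COX7B, COX7C and COX4I1, the ubiquitous form of the largest nuclear subunit, differed by 0.21, 0.20 and 0.17. COX5A, at 0.07, and COX8A, at -0.07, were nearly equal on the arrays. These sizes are small beside the SD of 0.75 across all genes, and apart from COX7A2 and COX6C all lay within the middle 50% of the genes compared. COX7A2L, a homolog of COX7A2 that links complex III to complex IV in supercomplexes, was at 14.10 and 14.22 (0.12).

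The tissue forms of complex IV subunits were dim in this line. COX4I2 (lung), COX6B2 and COX8C (testis), COX7A1 (heart and muscle) and COX7B2 were between 3.58 and 5.78 on both arrays, in the range of genes restricted to other tissues, and were not compared. COX6A2, the heart and muscle form of subunit 6A, was at 7.44 in siControl and 8.05 in siYY1 (0.61). COX6A2 reached the brightness minimum only in siYY1, so the filter favours a positive difference. Its ubiquitous counterpart COX6A1 differed by 0.31, and nothing is drawn from the shared sign. No level of a tissue form was set against that of its counterpart, because probe sets differ in response.

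The members that make haem a or handle copper for complex IV, COX10, COX15, COX11 and COX17, were lower in siYY1. COX15, which carries out the last step of haem a synthesis, was at 10.81 in siControl but 9.45 in siYY1, so 2.56-fold lower (-1.35). COX10, the enzyme of the preceding step, was at 9.09 and 8.57 (-0.52). COX17, the copper chaperone of the intermembrane space, was at 11.24 and 10.69 (-0.55), and COX11, which hands copper to the first catalytic subunit, at 11.77 and 11.28 (-0.49). COX18, which inserts the second catalytic subunit into the membrane, was at 9.32 and 8.998 (-0.32), and COX20, its stabilising partner, at 11.98 and 11.79 (-0.19). Only COX15 of these 6 passed 2-fold. COX14, which binds the newly made first catalytic subunit, was the exception at 9.91 and 10.66 (0.74). COX19 was below the brightness minimum, at 6.60 and 6.69.

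In complex V the F1 head, which carries out ATP synthesis, was lower in siYY1 in each of its 4 measured subunits, while the membrane-embedded small subunits were mostly higher. ATP5F1A encodes the alpha subunit, which alternates with the catalytic beta subunit in the head. It was at 14.27 in siControl but 12.69 in siYY1, a 3.00-fold lower level (-1.59) at percentile 2.39 of the genes compared. ATP5F1D, the delta subunit of the central stalk, was at 12.63 and 11.46, 2.24-fold lower (-1.17). ATP5F1B, the beta subunit, was at 16.32 and 15.89 (-0.43), and ATP5F1C, the gamma subunit of the rotating stalk, at 13.71 and 13.34 (-0.37). The alpha and beta subunits are used in equal numbers in the enzyme, yet their differences were -1.59 and -0.43. The median of the 4 was -0.80 (-0.93 with the values as deposited), and each of the 4 stayed below 0 there.

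Subunit c forms the rotor ring in the membrane and is encoded by 3 genes whose mature proteins are identical. ATP5MC1 was at 15.23 in siControl and 14.64 in siYY1, 1.502-fold lower (-0.59). ATP5MC2 was at 13.70 and 13.96 (0.26) and ATP5MC3 at 12.96 and 13.09 (0.13). ATP5MC1 thus lay on the other side of 0 from the other genes for this subunit, although in the values as deposited their median was -0.01 with 2 of 3 below 0. The peripheral stalk, which keeps the head from turning with the rotor, had 2 genes above 0 and 2 below. ATP5PB was at 14.86 and 15.20 (0.34), ATP5PO at 14.53 and 14.65 (0.13), ATP5PD at 13.29 and 13.26 (-0.03) and ATP5PF at 16.18 and 16.08 (-0.10).

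The small membrane subunits that hold ATP synthase dimers together were above 0 in 3 of 4 genes. ATP5MF was at 14.24 in siControl and 14.88 in siYY1, 1.56-fold higher (0.64), and ATP5ME at 11.55 and 12.11 (0.56). ATP5MJ was at 13.24 and 13.50 (0.26), and ATP5MG at 14.13 and 14.12 (-0.01). ATP5IF1, the inhibitor that blocks ATP hydrolysis when the gradient collapses, was at 13.13 and 12.94 (-0.19). ATP5MF-PTCD1, a readthrough transcript that shares sequence with ATP5MF and PTCD1, was dim at 6.51 and 5.55, and ATP5MGL, a copy of ATP5MG, was at 6.72 and 6.54. Neither of these was compared, and their signal can come in part from the genes they resemble.

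**Figure D3:**
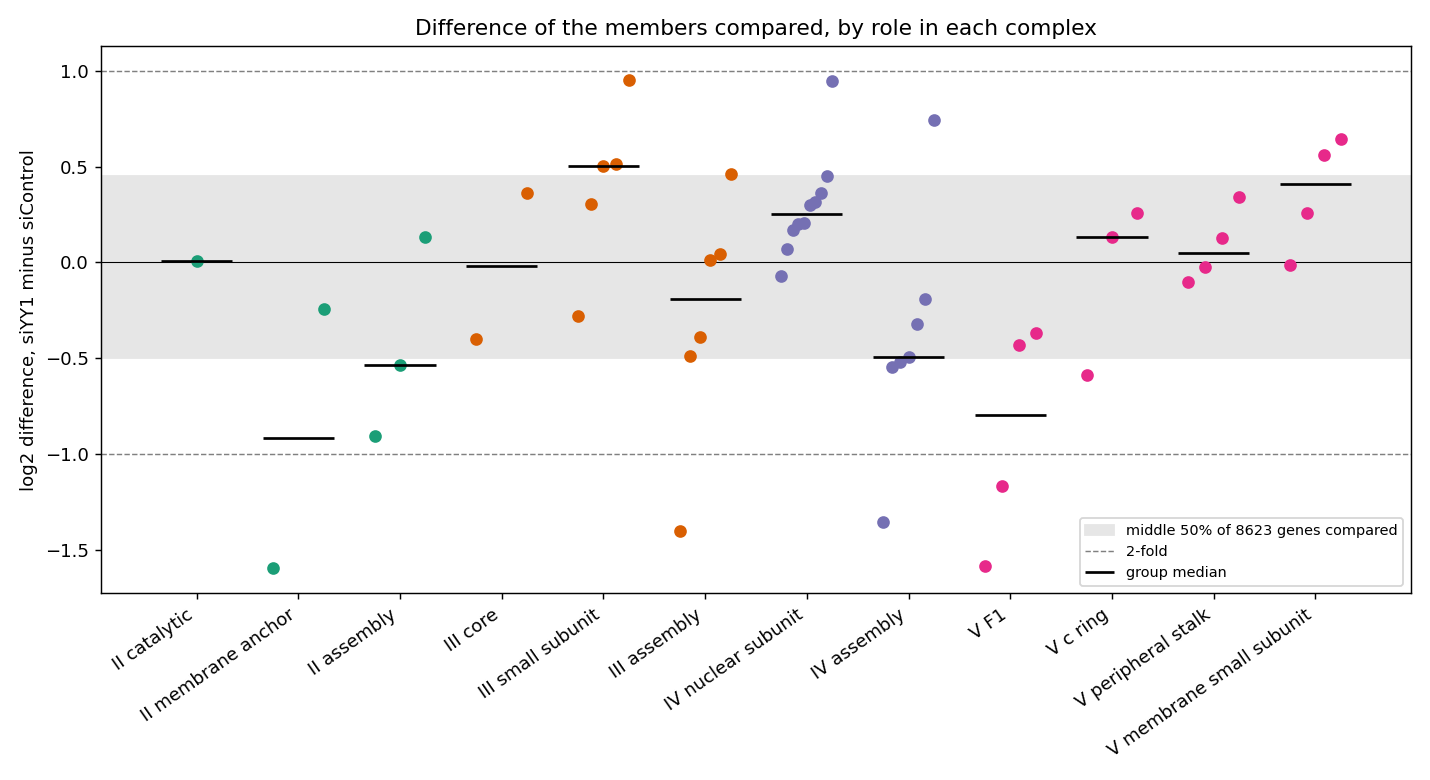
Log2 difference (siYY1 minus siControl) of the members compared, by complex and role, with 1 point per gene and a bar at each group's median. The grey band is the middle 50% of the 8623 genes compared (-0.50 to 0.45) and dashed lines mark 2-fold. Points of the F1 head and of the complex IV assembly factors lie mostly below 0, and those of the complex III small subunits and complex IV nuclear subunits mostly above it; copies, tissue forms, COX7A2L and ATP5IF1 are not drawn.

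Across complexes the assembly factors among the members had a median of -0.44 over the 16 compared. Of these 16, 11 were below 0 (68.8%, against 50.4% of all genes compared) and 2 at least 2-fold lower. For the 36 structural subunits, COX7A2L counted among them, the median was 0.15, with 13 below 0 and 3 at least 2-fold lower. The shares at least 2-fold lower, 12.5% and 8.33%, were both near the 9.27% of all genes compared. With the values as deposited these medians were -0.50 and 0.01, and with centred arrays -0.58 and -0.07. Brightness differs between these groups. Of 3 equal parts of the genes compared, the dimmest held 11 members with a median of -0.39 and the brightest 37 with one of 0.13. All genes in those parts had medians of -0.03 and 0.01, so the median of the full set hardly differed by brightness. The spread did differ, with an SD of 0.81 and 20.9% past 2-fold in the dimmest part, and 0.66 and 12.6% in the brightest. Genomic span also went with the members' values. The 44 members in the part with the shortest spans had a median of 0.13 and the 8 in the middle part one of -0.47, where all genes had -0.04 and -0.08. In the part with the longest spans 3 members had a median of -0.52, where all genes had 0.09. The part of span in these values was not tested.

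Respiratory genes outside the naming rule were read from a list by name. Of 40 listed, 35 were found under the listed symbol and all 35 were compared, with a median of -0.14 and 19 below 0. Of the 35, 4 were at least 2-fold lower and none at least 2-fold higher. A further listed gene, NDUFA4, is named COXFA4 here and is not in these counts. COXFA4 was at 14.22 in siControl and 15.04 in siYY1 (0.82). Among the 35, 54.3% were below 0 and 11.4% at least 2-fold lower, near the 50.4% and 9.27% of all genes compared. ATPAF1, the chaperone that binds the beta subunit during assembly of the F1 head, was at 11.82 in siControl and 10.05 in siYY1. It was 3.40-fold lower (-1.76), the lowest of the list. ATPAF2, which plays the same part for the alpha subunit, was at 10.38 and 10.62 (0.24), although ATP5F1A itself was 3.00-fold lower. The other genes past 2-fold were also assembly factors. COA7, a complex IV factor of the intermembrane space, was at 11.55 and 10.32 (-1.23). BCS1L, which inserts the Rieske iron-sulphur protein into complex III, was at 10.87 and 9.75 (-1.12), and COA6, a copper-handling factor of complex IV, at 10.64 and 9.60 (-1.03). SCO1, which delivers copper to the second catalytic subunit, was at 12.03 and 12.14 (0.11). Assembly factors of complex IV in this list thus lay on both sides of 0. SURF1 was at 0.62, COA5 at 0.59, PET100 at 0.41, COA8 at 0.25 and COA4 at 0.16, while CMC2 was at -0.50. The highest of the 35 were CMC1, at 7.37 and 8.08, and COA3, at 11.01 and 11.70. They differed by 0.70 each, less than COXFA4 at 0.82. CMC1 reached the brightness minimum only in siYY1, so the filter favours a positive difference for it. COA3 and CMC1 act with COX14 on the newly made first catalytic subunit, and COX14 was at 0.74. Other listed genes that act on this subunit or its synthesis lay on either side of 0. Of these, COA1 was at 0.28, TACO1 at -0.32 and SMIM20 at -0.52. CYC1, the cytochrome c1 subunit of complex III, was at 0.24 and CYCS, cytochrome c, at -0.39.

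Complex I genes, read in the same way from symbols that begin with NDUF, had a median of 0.21 over 40 genes compared, of which 4 passed 2-fold upwards and 2 downwards, against 7.97% and 9.27% of all genes compared. For complex I the counts with the values as deposited were 0 and 2, against 6.15% and 12.2%. Complexes II to V had 0 and 5 of 55 under either scaling. Whether the groups differ was not tested, as each rests on the same pair of arrays.

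Regulators of respiratory genes showed no common direction. Of 27 listed, 24 were named and 19 compared, with 10 above 0, and 1 passed 2-fold upwards and 2 downwards, near the 7.97% and 9.27% of all genes compared. CREB1, a transcription factor that acts on promoters of the respiratory programme, was at 11.34 in siControl and 9.35 in siYY1, 3.97-fold lower (-1.99). TFB1M, the methyltransferase of mitochondrial ribosomal RNA, was at 10.40 and 8.91 (-1.49). PPRC1, a coactivator related to PGC-1alpha, was at 9.95 and 11.13, 2.27-fold higher (1.18). NRF1, which binds many respiratory promoters, was nearly equal at 9.14 and 9.01 (-0.12), as was TFAM, the packaging factor of mitochondrial DNA, at 13.02 and 13.13 (0.10). GABPA, the ETS factor of these promoters, was at 10.44 and 10.80 (0.36). PPARGC1A, which encodes PGC-1alpha and is known as a partner of YY1 on respiratory genes in muscle, was dim at 5.51 and 4.88.

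Promoter sequence was examined because YY1 acts through binding sites near gene starts. RefSeq promoters on GRCh38.p14, each 300 bases long with 250 before and 50 from the annotated start, matched 50 of the 64 members. They were searched on both strands for letters of the YY1 motif (AANATGGC), the NRF1 motif (GCGCNTGCG) and an ETS motif (CCGGAAG, as bound by GABPA), where N is any base. Below are the windows from 100 bases before to 30 bases into the gene, 5′ to 3′ on the gene's strand, with motif matches in capitals. The first 3 belong to genes at least 2-fold lower in siYY1, and none of them holds the YY1 letters in its 300 bases. The last 4 hold the YY1 letters and differed by less than 2-fold.
ATP5F1A, chr18:46104198-46104327, minus strand: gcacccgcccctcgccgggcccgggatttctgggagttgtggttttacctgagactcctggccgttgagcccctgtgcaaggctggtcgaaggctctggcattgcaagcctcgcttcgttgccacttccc
COX15, chr10:99732098-99732227, minus strand: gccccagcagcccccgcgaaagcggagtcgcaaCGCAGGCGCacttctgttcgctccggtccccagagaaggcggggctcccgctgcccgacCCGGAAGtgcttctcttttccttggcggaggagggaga
UQCC5, chr3:52536505-52536634, plus strand: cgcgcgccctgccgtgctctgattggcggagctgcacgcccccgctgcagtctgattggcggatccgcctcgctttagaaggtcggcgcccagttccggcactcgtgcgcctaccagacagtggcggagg
UQCC1, chr20:35411944-35412073, minus strand: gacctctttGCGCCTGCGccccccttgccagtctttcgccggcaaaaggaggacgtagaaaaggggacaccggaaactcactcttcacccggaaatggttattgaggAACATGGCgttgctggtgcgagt
ATP5PB, chr1:111449364-111449493, plus strand: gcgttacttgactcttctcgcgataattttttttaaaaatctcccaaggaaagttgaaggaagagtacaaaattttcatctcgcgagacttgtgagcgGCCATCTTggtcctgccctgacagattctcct
COX6A1, chr12:120438013-120438142, plus strand: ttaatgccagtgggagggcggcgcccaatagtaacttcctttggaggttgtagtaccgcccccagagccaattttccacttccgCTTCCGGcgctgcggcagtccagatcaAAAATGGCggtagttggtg
ATP5PF, chr21:25735025-25735154, minus strand: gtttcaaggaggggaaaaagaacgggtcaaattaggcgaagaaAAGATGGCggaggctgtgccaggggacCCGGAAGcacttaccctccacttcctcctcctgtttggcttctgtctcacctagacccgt

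The YY1 letters were in 12 of the 50 member promoters (24.0%), against 6.82% of all 27305 promoters and 11.8% of those of the genes compared. The NRF1 letters were in 42.0% of the member promoters, against 8.05% of all promoters and 16.6% of those of the genes compared. For the ETS letters the shares were 36.0%, 10.7% and 22.0%. These member shares cover all 50 promoters. Over the 45 that belong to members compared they were 26.7% for YY1, 44.4% for NRF1 and 40% for ETS. In no member did matches of different motifs share bases. In 11 of the 12 members the YY1 letters began within the stretch from 10 bases before to 40 bases into the gene, against 66.2% of the promoters with these letters among the genes compared. The YY1 letters contain ATG, so some matches past the start can cover a translation start, which was not tested. A match of letters is a description and not a binding site.

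The 12 members with the YY1 letters ran from -0.52 for COX10 to 0.95 for UQCR10, with 9 above 0, a median of 0.17 and none at least 2-fold lower or higher. Of the 858 genes compared with these letters, 50.1% were above 0, with a median of 0.004. With the values as deposited 6 of the 12 members were above 0, with a median of 0.013, where all genes compared had a median of -0.13. The windows of UQCC1 (0.46), ATP5PB (0.34), COX6A1 (0.31) and ATP5PF (-0.10) printed above are examples. The others were UQCRC1 at 0.36, COX7B at 0.21, SDHAF2 and ATP5PO at 0.13 each, UQCC2 at 0.01 and COX8A at -0.07. Among the 33 members compared without the letters the median was -0.03, and 3 were at least 2-fold lower: ATP5F1A, COX15 and UQCC5. SDHC and ATP5F1D, also at least 2-fold lower, were not among the 50 members with a promoter and stand in neither count. Over all genes compared with a promoter entry, 10.7% of the 858 with the letters and 9.46% of the 6440 without were at least 2-fold lower, and 6.99% and 7.70% were at least 2-fold higher. Among the members with the NRF1 letters the median was 0.01 over 20, with UQCC5 and COX15 at least 2-fold lower. This was 10% of the 20, against 10.4% of the 1208 genes compared with these letters. With the ETS letters the median was -0.02 over 18, with COX15 at least 2-fold lower. This was 5.56% of the 18, against 9.78% of the 1606 genes compared with these letters.

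Some members start beside a gene on the other strand, so that the pair shares the sequence between the starts. By the RefSeq promoters, 11 members had such a divergent neighbour within 1000 bases, and in 8 pairs both genes were compared. In 6 of the 8 pairs member and neighbour were on opposite sides of 0, against 207 of 414 such pairs over all genes compared. With the values as deposited this held in 7 of the 8, and the share over all such pairs was not computed at that scaling. ATP5F1A, at -1.59, starts 158 bases from HAUS1, a subunit of the spindle factor augmin, which was at 9.79 in siControl and 10.29 in siYY1 (0.50). COX15, at -1.35, starts 107 bases from CUTC, which was at 9.99 and 10.89 (0.90). ATP5F1C, at -0.37, starts 184 bases from KIN, at 7.93 and 9.04 (1.11), the only one of the 8 neighbours past 2-fold. UQCRH, at -0.28, has LRRC41 beside it at 0.69. ATP5PB and COX4I1, at 0.34 and 0.17, have WDR77 at -0.36 and EMC8 at -0.31. ATP5ME with MYL5 and SDHAF2 with CPSF7 were both above 0, at 0.56 with 0.21 and at 0.13 with 0.30. These are 8 pairs on a single pair of arrays and have no test.

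**Figure D4:**
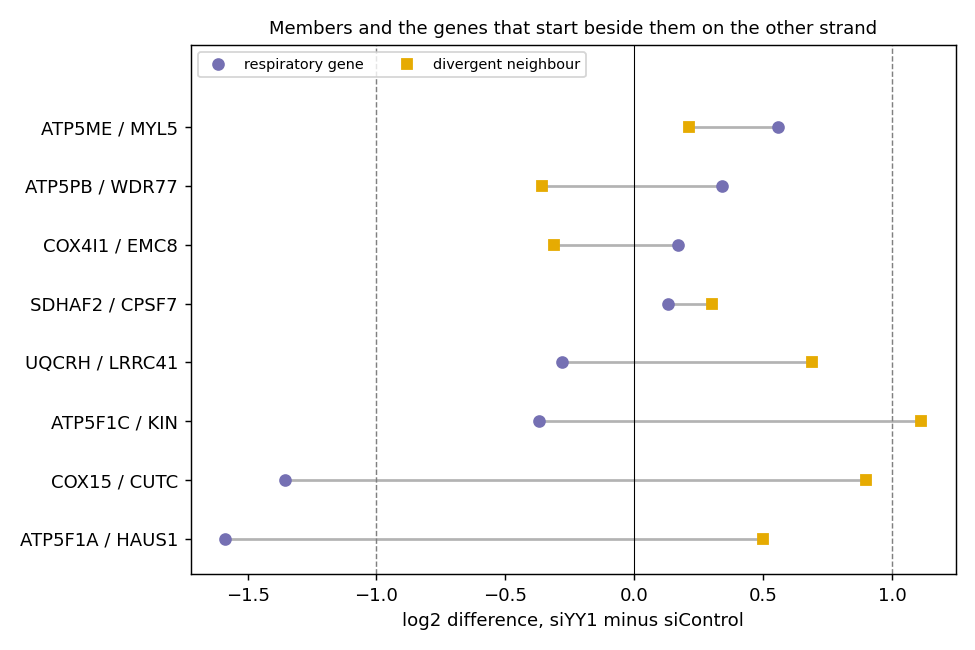
Log2 differences (siYY1 minus siControl) of 8 members (circles) and of the genes that start within 1000 bases of them on the other strand (squares). Dashed lines mark 2-fold; in 6 pairs the symbols lie on opposite sides of 0, and the pairs farthest apart are COX15 with CUTC and ATP5F1A with HAUS1.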

How the data were processed

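Sense cDNA from 2 DLD-1 cultures was biotin-labelled with a GeneChip kit, per the labels' protocols. The value the authors deposited for each probe set and array was taken as log2 from its range. Its background correction, normalization and software are not stated in these sources. Deposited medians were 6.86 (siControl) and 6.93 (siYY1). Because the 25th, 50th and 75th percentiles differed by 0.18, 0.07 and -0.13, over the tolerance of 0.05, the pair was quantile normalized. A platform annotation table named 17709 of 21448 probe sets, and symbols were updated through gene IDs to the RefSeq table of GRCh38.p14. Probe sets of 1 gene were averaged. With 1 array per group nothing was tested, and genes were counted at 2-fold. Every member could be named. Of other lists, the members past 2-fold and the highest and lowest were named. Added to these were GABPA, NRF1, TFAM, PPARGC1A, ATPAF2, CYC1, CYCS, COA1, COA3, SCO1, SMIM20, TACO1, COXFA4, 6 further cristae genes and markers. SURF1, COA4, COA5, COA8, PET100 and CMC2 were also added. These additions were chosen after their values were seen. The members, roles, lists and motifs were chosen with earlier results of these data known. The computation was tested on simulated data. Alternatives covered scaling, probe set choice, brightness, thresholds, gene types and summary. Python 3.11.15, numpy 2.4.6, pandas 2.3.3, statsmodels 0.14.6 and matplotlib 3.10.9 were used.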

Additional observations from a re-analysis of the deposited data

How the results depend on the processing

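The counts of members past 2-fold, 0 higher and 5 lower, stayed at 0 and between 4 and 6 under every other scaling, brightness, probe set and gene type setting tried. At 1.5-fold 5 members were higher and 7 lower, against 19.5% and 21.8% of all genes compared, and at 3-fold 2 were lower (SDHC and ATP5F1A), against 2.41%. The median of the members, 0.04, lies so close to 0 that its sign turned: it was -0.047 with the values as deposited, -0.12 with centred arrays and -0.072 as a mean, and 0.15 over the structural subunits alone. The same scalings moved the median of all genes to -0.13 and -0.20. With the values as deposited and with centred arrays, the c ring median became -0.010 and -0.084 and the peripheral stalk median -0.089 and -0.16. With centred arrays the medians of complexes III and IV were both -0.051. The brightness minimum over all named genes, the structural subunits alone and the role groups under other scalings were added after the data were seen. No paired analysis was possible because each group is 1 array. Values close to background, such as UQCC5 in siYY1, limit the sizes given.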

Other observations

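Genes that shape the cristae, the membrane folds that hold the respiratory complexes, were mostly lower in the siYY1 array. Of 14 listed, 13 were named and 12 compared, with a median of -0.29, 9 below 0 (against 50.4% of all genes compared) and 1 at least 2-fold lower (8.33%, against 9.27%). APOOL, a cardiolipin-binding subunit of the MICOS complex at crista junctions, was at 10.98 in siControl and 9.63 in siYY1, 2.54-fold lower (-1.35). MICOS13, another subunit, was at 8.25 and 7.44 (-0.80), and MICOS10 at 14.17 and 13.68 (-0.49). STOML2, a cardiolipin-binding scaffold protein, was at 14.26 and 13.83 (-0.43). IMMT, the organiser of the complex, was at 12.84 and 12.47 (-0.37), and OPA1, the GTPase that keeps junctions narrow, was at 12.91 and 12.61 (-0.29). CRLS1, which makes cardiolipin, was the highest at 10.42 and 10.97 (0.55), followed by SAMM50 at 0.38. With the values as deposited the median was -0.41 and 10 of the 12 were below 0, where all genes had a median of -0.13.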
